A study of Homo sapiens with 7 samples.

Results

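Steady-state mRNA was set against nascent transcription, gene by gene, in HCT116 cells, an established human colorectal carcinoma line. The cells were in log phase in serum-free McCoy's 5A medium with epidermal growth factor, insulin and transferrin, and all libraries came from this one condition, with no treatment or genotype to compare. Nascent transcription (TR) was measured by GRO-seq in 2 libraries, steady-state mRNA abundance (RA) by RNA-seq of isolated mRNA in 3 libraries, and polysome-bound mRNA (TA) in 2 libraries that enter the fit only through the estimate of the spread. Of the 20072 gene symbols in the table, the 14281 with a mean of at least 1 RPKM in TR or in RA were used. RPKM is the number of reads over a gene's exons per kilobase of exon and scaled to the library's counted reads. A level is thus relative to the rest of its library. A comparison of levels between assays also depends on what else each library holds. The study's text calls them biological replicates, while the labels do not give separate cultures, so the p-values measure the spread between these libraries.

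The amount of an mRNA at steady state is set by how fast it is made and how fast it is lost. In GRO-seq, RNA polymerases already engaged on DNA extend their transcripts in isolated nuclei in the presence of Br-UTP, and the labelled RNA is captured with an antibody to bromodeoxyuridine, so the reads mark genes under transcription, whatever becomes of the product. RNA-seq of isolated mRNA counts the processed product. A gene with a high ratio of RA to TR has much mature mRNA for its transcription and a gene with a low ratio has little. The ratio is relative within each library and is not a half-life: splicing, export, polyadenylation, decay, the position of polymerases along the gene and the recovery of each RNA in the library all enter it, and their parts were not measured here.

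The TR libraries held 3391897 and 5629982 counted reads, a number worked out from the steps between the lowest RPKM values, and the RA libraries held 20299018, 22532134 and 20560372. For an mRNA of 3 kb, a floor of 3 reads corresponds to 0.295 and 0.178 RPKM in TR and to between 0.0444 and 0.0493 RPKM in RA. Of 9 epithelial markers, 7 reached 1 RPKM in RA, among them *EPCAM* and *KRT8*, which encodes a keratin of simple epithelia. The intestinal markers *CEACAM5*, listed at 0 in both assays, and *VIL1*, at 0.0118 RPKM in RA, did not. Of 17 markers of blood cells, fibroblasts, endothelium, liver and red cells, only *COL1A1*, which encodes a collagen chain of fibroblasts, reached 1 RPKM in RA, at a mean of 11.5 RPKM.

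Across the genes used, the log2 ratio of mean RA to mean TR had a median of -0.54 (from -0.62 to -0.54 over the 6 pairs of 1 TR and 1 RA library), so that the typical gene had 1.46 times less RPKM in RA than in TR. The spread was wide and skewed to the low side. From the 25th to the 75th percentile the genes ran from -1.97 to 0.38, the lowest 5% lay under -6.44 and the highest 5% above 1.58. A ratio could be formed for 14099 genes, since 180 had no read in any RA library and 2 had none in any TR library. Reaching 1 RPKM in TR alone was far more common than in RA alone, with 2649 genes against 88, and 11544 genes reached it in both. A level under 1 RPKM in RA is not an absence of mRNA. For a gene that entered through one assay alone the direction was fixed by the threshold, and such genes are among the calls over all genes.

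In a limma fit on log2(RPKM + 0.1), 2740 genes were higher in RA than in TR (19.2% of those tested, adjusted p under 0.05) and 6872 were lower (48.1%). RPKM values sum to similar totals but their medians differ between assays, by 0.67 on the log2 scale between RA and TR. With each library centred on its own median, 5046 genes were higher (35.3%) and 4824 lower (33.8%). No gene called in one direction was called in the other after centring. Centring adds the same amount to the difference of every gene and could hardly reverse a call. Among the 11544 genes with 1 RPKM or more in both assays, 2641 were higher and 4262 lower; the other calls are of genes that the threshold had placed on one side. Members of a gene list are therefore counted against 19.2% higher and 48.1% lower as the share over all genes, and each list's median is given relative to the median of all genes. Agreement between libraries was common for single genes: 78.8% of the genes used lay on one side of the pair's median in all 6 library pairs. Where RA and TR are said not to overlap for a named gene, this only describes its values. The share of all genes without overlap is not given here, so no result is drawn from it. The scatter of RA against TR shows both the broad relation and the lists that leave it.

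**Figure D1:**
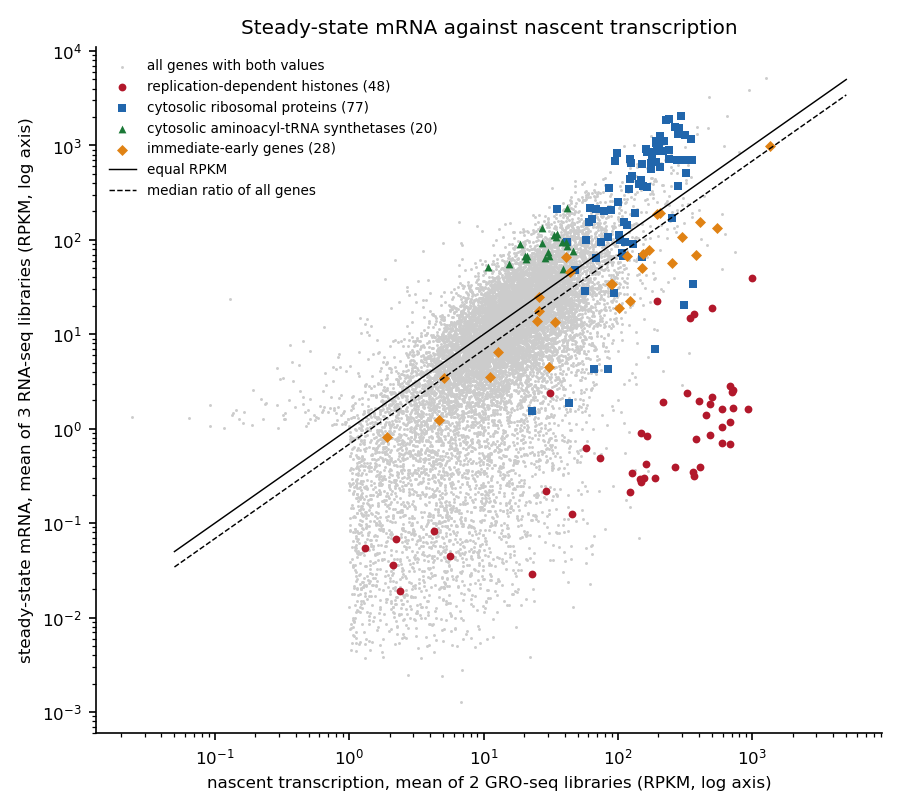
Mean RA (RNA-seq, 3 libraries) against mean TR (GRO-seq, 2 libraries), both in RPKM on log axes, 1 point per gene with a value above 0 in both; the solid line marks equal RPKM and the dashed line the median ratio. Replication-dependent histones (red circles) lie far under the lines, immediate-early genes (orange diamonds) mostly under them, and most cytosolic ribosomal proteins (blue squares) and aminoacyl-tRNA synthetases (green triangles) above them.

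The functional classes were taken as 67 gene lists, of which 63 had at least 6 genes among those used. Medians of 31 lists lay above the median of all genes in every library pair, those of 16 lay below it in every pair and those of 16 fell on both sides. In each list described with no gene called in one direction, limma also gave 0 genes in that direction at an unadjusted p under 0.05. The lists highest in the ratio were enzymes and complexes that every growing cell uses: peroxiredoxins and related redox enzymes at 2.29 relative to all genes, respiratory complexes III to V at 2.24, aminoacyl-tRNA synthetases at 2.20 and the proteasome core at 2.09. The lowest were replication-dependent histones at -7.60, G protein-coupled receptors at -2.82, cadherins and protocadherins at -2.64, ion channels at -2.13 and HOX genes at -1.40. The plot of list medians orders all of them.

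**Figure D2:**
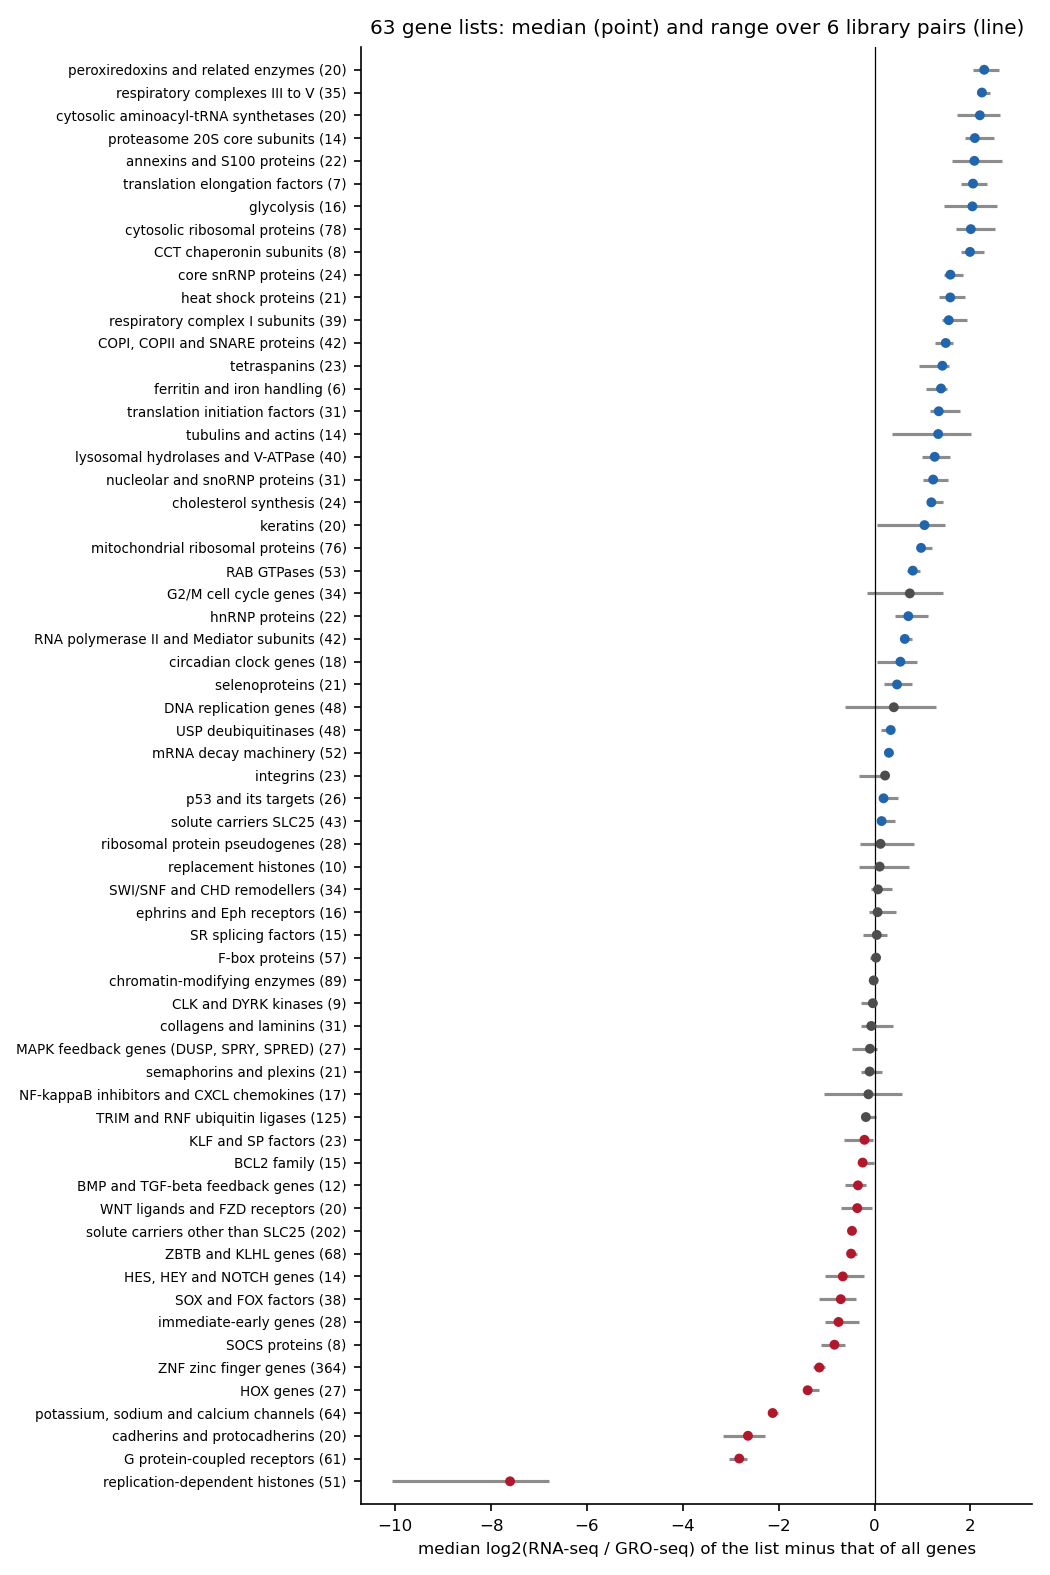
Median log2(RA/TR) of each of 63 gene lists minus the median of all genes, with the number of genes used in brackets; points are the values from the mean of each assay and lines the range over the 6 pairs of 1 TR and 1 RA library. Blue lists lie above 0 and red lists below 0 in every pair, grey lists on both sides, and the histones stand apart at -7.60.

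Replication-dependent histones, the core and linker histones made for new chromatin in S phase, had the least mRNA in RA for their transcription of any list. All 51 members used were called lower in RA and none higher, also with any RA library left out, and the list held 4.56% of all RPKM in TR and 0.0396% in RA. Their median level was 217 RPKM in TR and 0.682 RPKM in RA, and 31 of the 51 were under 1 RPKM in RA and so entered through TR alone. The 20 with 1 RPKM or more in both assays were all called lower. The families did not differ in direction. The median log2 ratio was -9.15 for 9 H3 genes, -9.02 for 10 H4 genes, -8.54 for 13 H2A genes, -7.09 for 15 H2B genes and -6.34 for 4 H1 genes. *HIST1H3A* had 324 and 407 RPKM in TR and 0.945, 0 and 0 RPKM in RA. *HIST1H2AB* had 304 and 419 RPKM in TR and 1.03, 0 and 0 RPKM in RA. In RA only library 1 held reads of either gene. *HIST1H2BK* ended the list at the other side, with 175 and 215 RPKM in TR and 29.1, 17.5 and 21 RPKM in RA (log2 difference -3.13 ± 0.32 (SE), adjusted p = 5.2e-05). *HIST1H3E* came next with 30.6 and 31.9 RPKM in TR and 0.960, 4.03 and 2.21 RPKM in RA (log2 difference -3.86 ± 0.53 (SE), adjusted p = 0.00031). Even these were lower in every RA library than in either TR library.

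Messages of this class are known to end in a short stem-loop instead of a poly(A) tail, and the RA libraries were made from mRNA isolated with a kit, a step that the GRO-seq libraries did not have; how much the isolation recovers of an mRNA without a tail was not tested. The consensus of the histone stem-loop, 6 bases of a left arm, a loop of 4 and 6 bases of a right arm, was searched on the sense strand of the annotated 3′ UTR. It was found for 66 of the 73 histone symbols in the table, at 64 distinct sites, and for 48 of the 51 used, at 46 sites. *HIST1H2BF* and *HIST1H2BG* matched, by an older name, the gene model of *HIST1H2BD*, so these 3 symbols share 1 site and the first 2 have no site of their own here. The stem-loop was also found in 8 other genes among the 18802 searched, so 0.394% of all gene symbols searched carried it. For the 3 used histones without a stem-loop, no gene model with a 3′ UTR was matched to the symbol, so none was searched. Of the 8 others, the 5 that were used had log2 ratios of -2.02 (*H2AFX*), -1.04 (*NHLRC3*), -0.55 (*RSF1*), -0.13 (*BTBD10*) and 0.39 (*EPB41L1*), all above the highest ratio among the replication-dependent histones. The sites of the 3 lowest histones and of the highest, *HIST1H2BK*, are given in the sense of the transcript, with both arms of the stem in capitals, to show the element that the list shares. Coordinates are of the 16 bases of the stem-loop in hg19.
HIST1H3A (chr6:26021160-26021175, plus strand): gcaaaGGCTCTtttcAGAGCCaccac
HIST1H2AB (chr6:26033326-26033341, minus strand): gcaaaGGCTCTtttcAGAGCCaccta
HIST1H4D (chr6:26188943-26188958, minus strand): ccaacGGCCCTtttcAGGGCCaccta
HIST1H2BK (chr6:27114145-27114160, minus strand): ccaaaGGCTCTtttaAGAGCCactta

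The form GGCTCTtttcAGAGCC stood at 38 of the 64 sites and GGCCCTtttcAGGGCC at 9 of them. The replacement histones, which are made throughout the cell cycle and whose messages are polyadenylated, did not lie low as a list. Their median was 0.11 (-0.33 to 0.73 over the library pairs), and 2 of 10 were called higher in RA and 3 lower. *H2AFZ*, which encodes the variant H2A.Z, had 136 and 158 RPKM in TR and 493, 271 and 258 RPKM in RA (log2 difference 1.15 ± 0.34 (SE), adjusted p = 0.016). *H2AFY*, which encodes macroH2A, was the highest at a log2 ratio of 1.65. *H2AFX*, whose transcripts are known in both a stem-loop and a polyadenylated form, had 409.9 and 424 RPKM in TR and 187, 32.7 and 88.6 RPKM in RA, with RA library 2 lowest. *H3F3B*, a source of histone H3.3, was lower in RA at 347 and 360.3 RPKM in TR and 246, 175 and 156 RPKM in RA (adjusted p = 0.013).

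The next lowest lists were families of tissue-specific surface proteins. Of 61 G protein-coupled receptors named GPR, ADR, HTR or DRD, 0 were called higher in RA and 52 lower, with a median of -2.82 (-3.04 to -2.67 over the library pairs). With centred libraries 3 were higher and 44 lower. Only 25 of them had 1 RPKM or more in both assays, and of these 17 were called lower, while the other 36 passed through TR alone. *GPR151*, the lowest, had 39.3 and 53.9 RPKM in TR and 0.0391, 0 and 0 RPKM in RA. *GPR61* had 6.16 and 5.03 RPKM in TR and 0.0175, 0.0157 and 0 RPKM in RA. *GPR108* had 31.8 and 29.3 RPKM in TR and 29.8, 54.2 and 40.6 RPKM in RA (adjusted p = 0.22). For potassium, sodium and calcium channels, 1 of 64 was called higher in RA and 52 lower, and the median was -2.13 (-2.17 to -2.02 over the library pairs). Of the 32 with 1 RPKM or more in both assays, 20 were lower, and the other 32 passed through TR alone. The one called higher was *KCNK1*, a leak potassium channel, at 16.4 and 12.7 RPKM in TR and 27.7, 27 and 28.9 RPKM in RA (log2 difference 0.95 ± 0.17 (SE), adjusted p = 0.0013). *KCNS1* was among the lowest with 13.3 and 19.1 RPKM in TR and 0.0217, 0.00978 and 0.0214 RPKM in RA.

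Cadherins, the calcium-dependent adhesion proteins, lay low apart from a pair that epithelia express. *CDH3*, which encodes P-cadherin, had 43 and 31.8 RPKM in TR and 94.3, 88.1 and 115 RPKM in RA (log2 difference 1.41 ± 0.23 (SE), adjusted p = 0.00072). *CDH1*, which encodes E-cadherin and holds epithelial cells together, had 28.2 and 20.03 RPKM in TR and 40.8, 55.2 and 45.2 RPKM in RA (log2 difference 0.97 ± 0.22 (SE), adjusted p = 0.0042). These were the 2 called higher, whereas 16 of 20 were called lower, 13 of the 20 having passed through TR alone. *CDH23*, a cadherin of the inner ear, had 3.16 and 4.49 RPKM in TR and 0.00359, 0.0162 and 0.0142 RPKM in RA. The median of the list was -2.64 (-3.17 to -2.30 over the library pairs). With 1 RPKM asked of both assays the medians relative to all such genes were -0.97 for the receptors, -1.0 for the channels and -0.69 for the cadherins. Integrins, which bind the extracellular matrix, also spread widely, from *ITGB1* with 79.3 and 46.8 RPKM in TR and 155, 173 and 251 RPKM in RA (adjusted p = 0.0016) to *ITGAD* with 21.3 and 23.2 RPKM in TR and 0.151, 0.0227 and 0.0497 RPKM in RA.

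Lists that hold transcription factors also lay low, with more moderate ratios; those of HES, HEY and NOTCH genes and of ZBTB and KLHL genes also hold receptors and adaptors of ubiquitin ligases. Of 364 ZNF zinc finger genes, the largest family of human DNA-binding proteins, 295 were called lower and 7 higher, with a median of -1.15 (-1.29 to -1.02 over the library pairs). Of the 312 with 1 RPKM or more in both assays, 243 were called lower, and another 52 passed through TR alone. The highest, *ZNF277*, had 4.28 and 4.10 RPKM in TR and 11.6, 21.2 and 16.5 RPKM in RA. The next, *ZNF664*, had 25.2 and 16.9 RPKM in TR and 66, 79.98 and 54.8 RPKM in RA. The lowest, *ZNF785*, had 5.87 and 9.79 RPKM in TR and 0.0302, 0.0136 and 0.0149 RPKM in RA. For HOX genes, which set position along the body axis, 22 of 27 were lower and none higher (median -1.40, from -1.41 to -1.17 over the library pairs). Of the 19 with 1 RPKM or more in both assays, 14 were lower, and the other 8 passed through TR alone. *HOXB7* was nearly level at 17.7 and 17.8 RPKM in TR and 17.7, 12.7 and 14.2 RPKM in RA (adjusted p = 0.33). *HOXA2*, which passed through TR alone, had 15.8 and 24.2 RPKM in TR and 0.388, 0.225 and 0.246 RPKM in RA (adjusted p = 2.4e-06). SOX and FOX factors had a median of -0.71 (-1.17 to -0.38 over the library pairs), HES, HEY and NOTCH genes -0.66 (-1.04 to -0.22 over the library pairs), ZBTB and KLHL genes -0.49 (-0.52 to -0.37 over the library pairs), and KLF and SP factors -0.21 (-0.63 to -0.03 over the library pairs). Through TR alone passed 12 of 38 SOX and FOX factors, 3 of 14 HES, HEY and NOTCH genes, 10 of 68 ZBTB and KLHL genes and 4 of 23 KLF and SP factors. The 2 KLF genes called higher were *KLF16* and *KLF13*. *KLF13* had 8.98 and 8.78 RPKM in TR and 17.1, 17.8 and 19.5 RPKM in RA (adjusted p = 0.00074).

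Immediate-early genes, which are switched on within minutes of a growth signal and whose mRNAs are known to turn over fast, had a median of -0.75 (-1.02 to -0.33 over the library pairs) relative to all genes. Of 28, 19 were called lower in RA and none higher, and with centred libraries 13 were lower. They held 1.43% of all RPKM in TR and 0.648% in RA. *FOS*, a subunit of the AP-1 factor, had 99.5 and 148 RPKM in TR and 21.3, 29.8 and 17 RPKM in RA (log2 difference -2.45 ± 0.27 (SE), adjusted p = 8.7e-05). Its partner *JUN* had 76.8 and 99.3 RPKM in TR and 23.6, 42.5 and 36.8 RPKM in RA (log2 difference -1.39 ± 0.26 (SE), adjusted p = 0.0019). *FOSL1* had 163 and 177 RPKM in TR and 66.6, 80.4 and 89.9 RPKM in RA (log2 difference -1.11 ± 0.21 (SE), adjusted p = 0.0016). The groups did not overlap for any of the 3. *FOSB* was lowest at a log2 ratio of -2.76. *EGR1*, a zinc finger factor, had 202 and 398 RPKM in TR and 156, 62.5 and 101 RPKM in RA (log2 difference -1.51 ± 0.45 (SE), adjusted p = 0.018), and the libraries differed within both assays. *IER2* had 501 and 597 RPKM in TR and 142, 142 and 121 RPKM in RA (adjusted p = 5.5e-05). *ATF3*, a stress-induced factor, had 30.4 and 51.2 RPKM in TR and 21.3, 90.9 and 84.2 RPKM in RA (adjusted p = 0.5). *SRF*, which drives many of these genes, had 35.2 and 52.9 RPKM in TR and 35, 36.2 and 65.3 RPKM in RA (adjusted p = 0.98), so that RA lay on both sides of TR.

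*ZFP36* encodes tristetraprolin, a protein known to bind AU-rich elements and to speed the decay of mRNAs that carry them, its own included. It had 323 and 437 RPKM in TR and 55.7, 65.3 and 88.8 RPKM in RA (log2 difference -2.45 ± 0.27 (SE), adjusted p = 8.1e-05). The AU-rich nonamer TTATTTATT was present in the annotated 3′ UTR of 6 of the 28 immediate-early genes and in 8.63% of the genes used that have one. The first site of each of the 3 lowest carriers is shown in the sense of the transcript, with the nonamer in capitals and its hg19 position, as the element most often tied to this class.
FOS (chr14:75748773-75748781, plus strand): tttaatTTATTTATTaagatg
ZFP36 (chr19:39899846-39899854, plus strand): acgactTTATTTATTctaata
IER5 (chr1:181061589-181061597, plus strand): cttcctTTATTTATTtattta

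Across all protein-coding genes used the nonamer had little relation to the ratio. Protein-coding genes without it had a median log2 ratio of -0.52 (n = 12381), those with 1 copy -0.38 (n = 901), those with 2 copies -0.35 (n = 176) and those with 3 or more -0.65 (n = 102). Among the immediate-early genes, carriers had a median of -1.46 and the others -1.18. *SRF* and *ZFP36L1* carry a copy and were at log2 ratios of 0.05 and -0.10.

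Feedback genes of signalling pathways, also known for short-lived mRNAs, were mixed. Of 8 SOCS proteins, which restrain cytokine receptors, 5 were called lower and none higher, against 4 lower and 3 higher with centred libraries. *SOCS3* had 60.4 and 66 RPKM in TR and 13.5, 14.6 and 11.7 RPKM in RA (log2 difference -2.25 ± 0.19 (SE), adjusted p = 1.8e-05). *SOCS1* had 67.4 and 72.9 RPKM in TR and 7.45, 2.30 and 6.24 RPKM in RA (log2 difference -3.85 ± 0.65 (SE), adjusted p = 0.001). *SOCS5* and *SOCS7* were at log2 ratios of 0.36 and 0.63 and not called. Of 12 ID, SMAD6/7 and other feedback genes of BMP or TGF-β signalling, 8 were lower and none higher (median -0.35, from -0.62 to -0.19 over the library pairs), against 3 lower and 2 higher with centred libraries. *ID1*, an inhibitor of helix-loop-helix factors, had 529.6 and 717 RPKM in TR and 130.3, 59.2 and 154 RPKM in RA (log2 difference -2.54 ± 0.59 (SE), adjusted p = 0.0053). *SMAD7* had 7.28 and 9.28 RPKM in TR and 4.32, 6.04 and 4.18 RPKM in RA (adjusted p = 0.028). *NFKBIA*, which encodes the inhibitor IκBα, had 69 and 77.3 RPKM in TR and 19.7, 26.3 and 25.2 RPKM in RA (log2 difference -1.63 ± 0.18 (SE), adjusted p = 9.0e-05). The chemokine *CXCL1* had 33.4 and 45.6 RPKM in TR and 7.03, 8.23 and 10.4 RPKM in RA (log2 difference -2.19 ± 0.27 (SE), adjusted p = 0.00017). Both are targets of NF-κB, and in both RA was under TR in every library. *NFKB1*, a subunit of NF-κB itself, was called higher at 8.16 and 12.2 RPKM in TR and 13, 15.3 and 16.6 RPKM in RA (adjusted p = 0.047). For that list as a whole the median was -0.13 (-1.05 to 0.58 over the library pairs), on both sides of all genes. It was -1.41 over 10 genes without those whose exons overlap another gene, and 0.18 over 15 with 1 RPKM asked of both assays. The DUSP, SPRY and SPRED genes, which damp MAP kinase signalling, also lay on both sides at -0.10 (-0.48 to 0.06 over the library pairs). *DUSP9* was called higher at 2.85 and 3.51 RPKM in TR and 9.89, 8.04 and 9.36 RPKM in RA (adjusted p = 0.00049).

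Targets of p53 lay in both directions. HCT116 has wild-type p53, and *CDKN1A*, which encodes the cell-cycle inhibitor p21, had 222 and 199 RPKM in TR and 322, 386 and 423 RPKM in RA (log2 difference 0.83 ± 0.25 (SE), adjusted p = 0.019). *CCNG1*, cyclin G1, was higher at 32.4 and 27.7 RPKM in TR and 65.7, 109 and 87.7 RPKM in RA (log2 difference 1.51 ± 0.23 (SE), adjusted p = 0.00053). *RRM2B*, a ribonucleotide reductase subunit, was higher at 10.1 and 9.43 RPKM in TR and 23.1, 24.8 and 25.4 RPKM in RA (log2 difference 1.32 ± 0.16 (SE), adjusted p = 0.00014). *BTG2*, an anti-proliferative factor, was lower at 71.2 and 85.9 RPKM in TR and 21.9, 28.8 and 29 RPKM in RA (log2 difference -1.57 ± 0.19 (SE), adjusted p = 0.00014). *TP53I3*, an oxidoreductase, was lower at 54.1 and 68.6 RPKM in TR and 13.5, 15.9 and 14.7 RPKM in RA (log2 difference -2.04 ± 0.18 (SE), adjusted p = 2.3e-05). *MDM2*, which encodes the ubiquitin ligase that removes p53, had 46.3 and 45.9 RPKM in TR and 34.7, 30.3 and 37.5 RPKM in RA (adjusted p = 0.057). The list of 26 had 3 called higher and 9 lower, 10 and 2 after centring. In the BCL2 family, which decides on apoptosis, 7 of 15 genes were called lower, near the share over all genes, and 1 higher. With centred libraries 3 were lower and 1 higher. The protective *BCL2L1* was the one gene called higher, at 28.8 and 20.9 RPKM in TR and 56.9, 102 and 106 RPKM in RA (log2 difference 1.79 ± 0.32 (SE), adjusted p = 0.0015). *MCL1*, also protective, was lower at 108 and 123.2 RPKM in TR and 73.1, 69.3 and 57.9 RPKM in RA (log2 difference -0.80 ± 0.20 (SE), adjusted p = 0.0076). Among those that promote death, *BBC3*, which encodes PUMA, had 52.2 and 57.9 RPKM in TR and 20.2, 31.4 and 33.8 RPKM in RA (adjusted p = 0.0067). *BCL2L11*, which encodes BIM, had 19.1 and 19.8 RPKM in TR and 7.63, 4.99 and 5.94 RPKM in RA (adjusted p = 0.0004). *BAD* had 102 and 116 RPKM in TR and 36.5, 27.2 and 31.1 RPKM in RA (adjusted p = 0.00043). In all 3 RA was under TR in every library.

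At the other end lay the machinery of protein synthesis. Cytosolic ribosomal proteins, the components of the 80S ribosome, held 3.60% of all RPKM in TR and 10.6% in RA, and their median was 2.01 (1.69 to 2.52 over the library pairs) relative to all genes. Of 78, 50 were called higher and 13 lower, and the counts ranged from 49 to 52 and from 9 to 14 when an RA library was left out. *RPS6*, the subunit that S6 kinase phosphorylates, had 229 and 229 RPKM in TR and 1395, 2511 and 1694 RPKM in RA (log2 difference 2.98 ± 0.38 (SE), adjusted p = 0.00019). *RPS4X* had 101 and 95.3 RPKM in TR and 706, 1049 and 735 RPKM in RA (log2 difference 3.06 ± 0.28 (SE), adjusted p = 3.2e-05). *RPLP0* had 189 and 223 RPKM in TR and 471, 752 and 546 RPKM in RA (log2 difference 1.49 ± 0.30 (SE), adjusted p = 0.0023). *RPSA* had 68.2 and 89.9 RPKM in TR and 199.5, 238 and 176 RPKM in RA (log2 difference 1.37 ± 0.27 (SE), adjusted p = 0.0021). For each of these 4, every RA library was above both TR libraries. The low members were far from the rest. *RPS28* had 171 and 206 RPKM in TR and 6.06, 8.83 and 5.98 RPKM in RA (log2 difference -4.76 ± 0.22 (SE), adjusted p = 8.6e-07). *RPL36A* had 34.1 and 51.8 RPKM in TR and 1.07, 2.91 and 1.65 RPKM in RA (log2 difference -4.52 ± 0.45 (SE), adjusted p = 5.2e-05). *RPS26* had 63.1 and 107 RPKM in TR and 4.26, 4.88 and 3.71 RPKM in RA. *RPS27* had 224 and 393 RPKM in TR and 8.98, 35.4 and 17.2 RPKM in RA. *RPS10* had 19.1 and 26.6 RPKM in TR and 1.34, 2.42 and 0.884 RPKM in RA. Subunits of one particle thus spanned log2 ratios from -4.76 to 3.08.

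Ribosomal protein genes have many processed pseudogenes, and reads that fit several places cannot be assigned with certainty. The annotation names a median of 20 pseudogenes (2 to 61) for the 13 genes called lower, 19 (3 to 87) for the 15 not called and 7 (1 to 80) for the 50 called higher. The values of single genes are therefore uncertain, and the part of shared reads in them was not tested. Genes in the table that are themselves named as ribosomal protein pseudogenes also ran in both directions, with 9 of 28 called higher and 11 lower. *RPSAP58* had 2.57 and 1.80 RPKM in TR and 54.8, 66.5 and 64.5 RPKM in RA. *RPS16P5* had 11.5 and 14.7 RPKM in TR and 0.0156, 0.0422 and 0.0154 RPKM in RA. Whether these values hold reads of the parent genes was not tested.

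Messages for ribosomal proteins are known to start with a 5′ terminal oligopyrimidine (TOP) tract, a C followed by a run of pyrimidines, through which their translation answers to mTOR. The tract was read from the RefSeq start sites (build GRCh38.p14, also for the positions given here) as a C followed by at least 4 pyrimidines at the first base, a pattern that 4.04% of all 27305 starts showed. The first 20 bases are shown, with the tract in capitals, of the 3 highest and the 3 lowest members that carry it, chosen as carriers after their values were seen, to show the element.
RPS6 (chr9:19380217-19380236, minus strand): CTCTTTTCCgtggcgcctcg
RPS24 (chr10:78033863-78033882, plus strand): CTCTTTTCCTCCTTggctgt
RPS19 (chr19:41860255-41860274, plus strand): CCCTTTCCCCTggctggcag
RPL36A (chrX:101391011-101391030, plus strand): CTTTCTTTCCgcgccgatag
RPS27 (chr1:153990762-153990781, plus strand): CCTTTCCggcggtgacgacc
RPS10 (chr6:34426050-34426069, minus strand): CCTTTCCagccccggtaccg

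*RPS6*, *RPS24* and *RPS19* had log2 ratios of 3.02, 2.57 and 2.55, and *RPL36A*, *RPS27* and *RPS10* of -4.52, -3.91 and -3.88. *RPS4X*, the highest of the list at 3.08, and the low members *RPS28* at -4.76 and *RPS26* at -4.31 showed no tract at the RefSeq start. Of the 62 ribosomal protein genes with a RefSeq start, 42 showed it there, with a median log2 ratio of 1.54, and the 20 others had 0.41. Outside the ribosome, 505 genes with a TOP start had a median of -0.20, with 29.5% called higher and 40.6% lower. The 10025 genes without it had a median of -0.46, with 19.6% higher and 45.6% lower. A TOP start at an annotated base is a description of that base and does not show which start these cells use.

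The other lists of translation followed. Among cytosolic aminoacyl-tRNA synthetases, which charge tRNAs with amino acids, 17 of 20 were called higher and none lower, with a median of 2.20 (1.72 to 2.62 over the library pairs). *AARS*, for alanine, had 39 and 44 RPKM in TR and 84.8, 346 and 218 RPKM in RA (log2 difference 2.16 ± 0.52 (SE), adjusted p = 0.0065). *GARS*, for glycine, had 26.2 and 28.4 RPKM in TR and 76.1, 198 and 126 RPKM in RA (log2 difference 2.18 ± 0.39 (SE), adjusted p = 0.0014). In both, RA library 1 was lowest. The lowest of the list were *HARS*, for histidine, and *MARS*, for methionine. *HARS* had 36.3 and 41.3 RPKM in TR and 52.7, 51 and 42.8 RPKM in RA (adjusted p = 0.15). *MARS* had 41.1 and 51.6 RPKM in TR and 45.6, 112 and 74.1 RPKM in RA (adjusted p = 0.15). Of 7 elongation factors, 5 were called higher. *EEF2*, the translocase, had 209.9 and 141 RPKM in TR and 1148, 1434 and 1188 RPKM in RA (log2 difference 2.86 ± 0.32 (SE), adjusted p = 9.8e-05). *EEF1A1*, which brings the charged tRNA, had 232 and 271 RPKM in TR and 130.0, 274 and 181 RPKM in RA (adjusted p = 0.25), with RA on both sides of TR. Of 31 initiation factors, 19 were higher and 4 lower. *EIF3E*, of the scaffold complex EIF3, stood highest with 49.9 and 45.1 RPKM in TR and 261, 506 and 346 RPKM in RA. *EIF3H*, of the same complex, followed with 69.4 and 41.7 RPKM in TR and 298, 531 and 412 RPKM in RA. *EIF4E*, the cap-binding factor, was lower at 14.9 and 15.5 RPKM in TR and 8.14, 5.91 and 6.83 RPKM in RA (log2 difference -1.13 ± 0.25 (SE), adjusted p = 0.0046). Mitochondrial ribosomal proteins were less far from all genes at 0.97 (0.88 to 1.19 over the library pairs), with 34 of 76 higher and 8 lower.

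Genes of energy metabolism formed a further high group. For respiratory complexes III to V, which pass electrons to oxygen and make ATP, 28 of 35 were called higher in RA and 1 lower, with a median of 2.24 (2.15 to 2.41 over the library pairs). *COX7B*, of cytochrome c oxidase, had 23.9 and 23 RPKM in TR and 158, 204 and 183 RPKM in RA (log2 difference 2.94 ± 0.18 (SE), adjusted p = 3.3e-06). *COX4I1* had 92 and 62.3 RPKM in TR and 425, 489 and 419 RPKM in RA (log2 difference 2.55 ± 0.26 (SE), adjusted p = 5.2e-05). *ATP5B*, the catalytic subunit of ATP synthase, had 137 and 94.1 RPKM in TR and 724, 610.3 and 631 RPKM in RA (log2 difference 2.52 ± 0.29 (SE), adjusted p = 0.00011), and *UQCRH* and *COX6C* had log2 ratios of 2.06 and 2.16. The one gene called lower was *ATPIF1*, whose product inhibits ATP synthase, at 63.6 and 79 RPKM in TR and 54.8, 40.2 and 35.6 RPKM in RA (log2 difference -0.73 ± 0.22 (SE), adjusted p = 0.019). Complex I had a median of 1.55 (1.40 to 1.92 over the library pairs), with 25 of 39 higher and 4 lower. *NDUFA4L2* stood apart from the other members with 28.8 and 32.1 RPKM in TR and 0.207, 1.38 and 0.246 RPKM in RA (adjusted p = 7.1e-05). Among carriers of the inner mitochondrial membrane, *SLC25A5*, which exchanges ADP for ATP, had 53.5 and 41.9 RPKM in TR and 346, 317 and 306 RPKM in RA (log2 difference 2.77 ± 0.21 (SE), adjusted p = 9.4e-06), but the whole SLC25 family lay close to all genes at 0.15 (0.07 to 0.43 over the library pairs).

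All 16 glycolytic genes were used and 12 were called higher, with none lower (median 2.04, from 1.44 to 2.54 over the library pairs). *GAPDH* had 457 and 315 RPKM in TR and 1753, 1367 and 1538 RPKM in RA (log2 difference 2.03 ± 0.40 (SE), adjusted p = 0.0022). *ENO1* had 154 and 122 RPKM in TR and 832, 472 and 485 RPKM in RA (log2 difference 2.07 ± 0.33 (SE), adjusted p = 0.00074). *PGK1* had 41.6 and 25.6 RPKM in TR and 243, 135 and 161 RPKM in RA (log2 difference 2.41 ± 0.31 (SE), adjusted p = 0.0002). *ALDOA* had 182 and 131 RPKM in TR and 501, 232 and 391 RPKM in RA (log2 difference 1.21 ± 0.40 (SE), adjusted p = 0.027). Not every step was high. *TPI1* had 243 and 214 RPKM in TR and 360.0, 173 and 212 RPKM in RA (adjusted p = 0.9). *PGAM1* had 16.8 and 20.8 RPKM in TR and 28.4, 8.98 and 13 RPKM in RA (adjusted p = 0.53). In both the RA and TR values overlapped. *LDHB*, of lactate dehydrogenase, was the highest at a log2 ratio of 2.57. Without the genes whose exons overlap another gene the median of the list was 1.06, over only 5 of the 16 genes.

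Redox enzymes had the highest median of all lists, at 2.29 (2.06 to 2.59 over the library pairs), with 16 of 20 called higher and none lower. *PRDX4*, the peroxiredoxin of the endoplasmic reticulum, had 22.7 and 28.5 RPKM in TR and 144, 217 and 184 RPKM in RA (log2 difference 2.81 ± 0.23 (SE), adjusted p = 1.6e-05). *TXN*, thioredoxin, had 53.3 and 49.7 RPKM in TR and 296, 273 and 232 RPKM in RA (log2 difference 2.36 ± 0.21 (SE), adjusted p = 2.8e-05). *PRDX1* had 177 and 177 RPKM in TR and 763, 564 and 536 RPKM in RA (log2 difference 1.79 ± 0.29 (SE), adjusted p = 0.00074). *SOD1* had 99.9 and 109 RPKM in TR and 423, 296 and 287 RPKM in RA (log2 difference 1.66 ± 0.26 (SE), adjusted p = 0.00058). The lowest were *GPX1* and *HMOX1*, which encodes heme oxygenase. *GPX1* had 93 and 93.4 RPKM in TR and 74.7, 50.2 and 71.3 RPKM in RA (adjusted p = 0.22). *HMOX1* had 13 and 16 RPKM in TR and 15.6, 24.9 and 11.5 RPKM in RA (adjusted p = 0.67). Of the selenoproteins, whose mRNAs recode a stop codon, *SEP15* had 17 and 10.9 RPKM in TR and 91.8, 132 and 97.4 RPKM in RA (log2 difference 2.95 ± 0.24 (SE), adjusted p = 1.6e-05). *GPX4*, which reduces lipid peroxides, had 71.6 and 72.9 RPKM in TR and 171, 135 and 179.6 RPKM in RA (log2 difference 1.15 ± 0.37 (SE), adjusted p = 0.025). *GPX2* and *GPX3* were transcribed but had RA values of 0.0657, 0.237 and 0.130 and of 0.0280, 0.0756 and 0.0276 RPKM, and the list lay at 0.47 (0.20 to 0.78 over the library pairs).

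Lists of protein quality control had medians above all genes. The proteasome core had 12 of 14 called higher and none lower (median 2.09, from 1.88 to 2.49 over the library pairs). *PSMB1*, its highest member, had 55.3 and 55.4 RPKM in TR and 311, 239 and 248 RPKM in RA (log2 difference 2.25 ± 0.21 (SE), adjusted p = 3.6e-05). The CCT chaperonin, which folds actin and tubulin, had 7 of 8 called higher and none lower. *CCT3* had 72.3 and 56.3 RPKM in TR and 361, 305 and 274 RPKM in RA (log2 difference 2.29 ± 0.23 (SE), adjusted p = 5.7e-05). Of 21 heat shock and chaperone genes, 11 were higher and 3 lower. The constitutive *HSP90AB1* had 315 and 180.4 RPKM in TR and 1033, 613 and 725 RPKM in RA (log2 difference 1.70 ± 0.37 (SE), adjusted p = 0.0041). *HSPD1*, of mitochondria, had 122 and 88.7 RPKM in TR and 300.2, 232 and 232 RPKM in RA (log2 difference 1.28 ± 0.24 (SE), adjusted p = 0.0019). *HSPA8* had 324 and 335 RPKM in TR and 824, 500.1 and 544 RPKM in RA (log2 difference 0.88 ± 0.30 (SE), adjusted p = 0.031). The 3 called lower were *HSPH1*, *HSPA1B* and *DNAJB1*. *HSPH1* had 51.2 and 56 RPKM in TR and 9.57, 8.77 and 7.90 RPKM in RA (log2 difference -2.60 ± 0.19 (SE), adjusted p = 9.0e-06). *HSPA1B* had 112 and 101 RPKM in TR and 84.6, 16 and 16.9 RPKM in RA (log2 difference -1.90 ± 0.65 (SE), adjusted p = 0.03). *DNAJB1* had 215 and 248 RPKM in TR and 175, 72.8 and 69.4 RPKM in RA (log2 difference -1.27 ± 0.39 (SE), adjusted p = 0.021). RA library 1 was highest in each of them. *HSPA5*, the chaperone BiP of the endoplasmic reticulum, had 111 and 149.9 RPKM in TR and 329, 1681 and 1023 RPKM in RA (log2 difference 2.68 ± 0.64 (SE), adjusted p = 0.0063), so its 3 RA libraries differed more from one another than its lowest did from TR.

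Among 14 tubulins and actins, 4 were called higher and none lower. *ACTB*, a cytoplasmic actin, had 483 and 448 RPKM in TR and 1467, 1139 and 2028 RPKM in RA (log2 difference 1.69 ± 0.47 (SE), adjusted p = 0.012). *ACTG1*, the other, had 1200.3 and 1318 RPKM in TR and 3599, 5534 and 6342 RPKM in RA (log2 difference 2.0 ± 0.66 (SE), adjusted p = 0.026). In both the lowest RA library was above the highest TR library. Annexins and S100 proteins, which bind calcium, had 14 of 22 higher and 5 lower (median 2.08, from 1.62 to 2.65 over the library pairs). *S100A6* had 556 and 395 RPKM in TR and 2691, 4403 and 2629 RPKM in RA (log2 difference 2.75 ± 0.51 (SE), adjusted p = 0.0017). *S100P* stood at the low end with 5.78 and 7.66 RPKM in TR and 0.193, 0.348 and 0.0954 RPKM in RA. Of 20 keratins 5 were higher and 5 lower, and *KRT8* was higher at 249.8 and 197 RPKM in TR and 605, 745 and 750.2 RPKM in RA (log2 difference 1.65 ± 0.30 (SE), adjusted p = 0.0015). Of 42 coat and SNARE proteins 24 were higher and 9 lower (median 1.48, from 1.25 to 1.63 over the library pairs), of 40 lysosomal hydrolases and V-ATPase subunits 23 were higher and 7 lower (median 1.25, from 0.99 to 1.58 over the library pairs), of 23 tetraspanins 12 were higher and 8 lower, and of 53 RAB GTPases 22 and 18. Within the RAB family, which steers vesicles, *RAB31* was highest with 14.5 and 10.9 RPKM in TR and 68.4, 58.8 and 59 RPKM in RA (adjusted p = 2.2e-05). *RAB26*, a GTPase of secretory granules, was lowest with 307 and 366 RPKM in TR and 10.1, 3.89 and 5.06 RPKM in RA (adjusted p = 1.1e-05).

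In cholesterol synthesis, 14 of 24 genes were higher and 3 lower (median 1.18, from 1.19 to 1.43 over the library pairs). *FDFT1*, squalene synthase, had 47.4 and 44.1 RPKM in TR and 149, 136 and 134.2 RPKM in RA (log2 difference 1.61 ± 0.17 (SE), adjusted p = 7.5e-05). *SREBF1*, a regulator of lipid synthesis, was lower at 67.8 and 55.6 RPKM in TR and 45.4, 35.8 and 36.4 RPKM in RA (log2 difference -0.66 ± 0.18 (SE), adjusted p = 0.013). Of 6 genes of iron handling 3 were higher and none lower. *FTL*, the light chain of ferritin, which stores iron, had 340.2 and 435 RPKM in TR and 891, 2029 and 1091 RPKM in RA (log2 difference 1.70 ± 0.42 (SE), adjusted p = 0.0069). *FTH1*, the heavy chain, had 326 and 299 RPKM in TR and 959.6, 1009 and 904 RPKM in RA (log2 difference 1.61 ± 0.35 (SE), adjusted p = 0.0036). *TFRC*, which encodes the transferrin receptor that brings iron into the cell, had 66.5 and 42.9 RPKM in TR and 148, 120.3 and 154 RPKM in RA (log2 difference 1.39 ± 0.24 (SE), adjusted p = 0.0011). All 3 were higher in every RA library than in either TR library.

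RNA processing factors differed by complex. Core snRNP proteins of the spliceosome had 15 of 24 higher and 5 lower (median 1.58, from 1.46 to 1.83 over the library pairs). *SNRPD2*, of the Sm ring, had 41.8 and 46.5 RPKM in TR and 287, 289.9 and 223 RPKM in RA (log2 difference 2.58 ± 0.21 (SE), adjusted p = 1.5e-05). *LSM8*, of the nuclear LSM ring, had 17.3 and 20.5 RPKM in TR and 4.30, 3.18 and 3.29 RPKM in RA (log2 difference -2.37 ± 0.22 (SE), adjusted p = 3.4e-05). SR proteins, which choose splice sites, had 1 of 15 higher and 7 lower (median 0.05, from -0.25 to 0.26 over the library pairs), near the share of all genes called lower, and 6 higher and 5 lower with centred libraries. *SRSF2* had 207 and 205 RPKM in TR and 111, 65.6 and 60.5 RPKM in RA (log2 difference -1.44 ± 0.27 (SE), adjusted p = 0.0017). *SRSF3* had 94.5 and 105 RPKM in TR and 60.6, 63.2 and 49.1 RPKM in RA (log2 difference -0.80 ± 0.18 (SE), adjusted p = 0.0043). *SRSF7* had 85 and 99.3 RPKM in TR and 53.5, 35.9 and 38.7 RPKM in RA (log2 difference -1.13 ± 0.24 (SE), adjusted p = 0.0036). All 3 are known to control their own mRNA through a poison exon, whose part in these values was not tested. The one called higher was *SRSF9*, with 43.3 and 38.5 RPKM in TR and 136, 71.9 and 76 RPKM in RA (log2 difference 1.15 ± 0.28 (SE), adjusted p = 0.0071). CLK and DYRK kinases, some of which phosphorylate SR proteins, had 6 of 9 lower, 2 after centring, with *CLK2* at 76.2 and 90.1 RPKM in TR and 18, 25 and 21.7 RPKM in RA (log2 difference -1.95 ± 0.19 (SE), adjusted p = 4.1e-05). hnRNP proteins lay above all genes at 0.70 (0.43 to 1.11 over the library pairs). Nucleolar proteins had 16 of 31 higher and 3 lower. *FBL*, the methyltransferase fibrillarin, had 49.1 and 35.1 RPKM in TR and 175, 239.8 and 168 RPKM in RA (log2 difference 2.21 ± 0.24 (SE), adjusted p = 7.8e-05). *NPM1* had 61 and 66.3 RPKM in TR and 187, 274 and 188 RPKM in RA (log2 difference 1.74 ± 0.26 (SE), adjusted p = 0.00054). *NOP56*, of the same snoRNPs as fibrillarin, had 135 and 118 RPKM in TR and 105, 122.9 and 90.2 RPKM in RA (adjusted p = 0.33).

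Genes of transcription, chromatin and mRNA decay stayed nearer to all genes. RNA polymerase II and Mediator subunits lay at 0.63 (0.59 to 0.78 over the library pairs), with 12 of 42 higher and 8 lower. Chromatin-modifying enzymes lay at -0.02, SWI/SNF and CHD remodellers at 0.07, F-box proteins at 0.03 and TRIM and RNF ubiquitin ligases at -0.18, each with pairs on both sides of 0. The list of chromatin-modifying enzymes also took in *KATNBL1P6*, its highest member, and *KATNAL2*, its lowest, which are katanin names and no such enzymes. *PRMT1*, an arginine methyltransferase, had 54.3 and 48.7 RPKM in TR and 197, 216 and 199 RPKM in RA (log2 difference 1.99 ± 0.18 (SE), adjusted p = 3.4e-05). For mRNA decay factors, 10 of 52 were higher and 20 lower, but 22 and 3 after centring (median 0.30, from 0.21 to 0.38 over the library pairs). *XRN2*, a nuclear exonuclease, had 31.1 and 19.3 RPKM in TR and 71.1, 70.9 and 61.4 RPKM in RA (log2 difference 1.46 ± 0.24 (SE), adjusted p = 0.00083). *EXOSC6*, an exosome subunit, had 41.6 and 61.4 RPKM in TR and 19.6, 11.7 and 17.7 RPKM in RA (log2 difference -1.66 ± 0.28 (SE), adjusted p = 0.00092).

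The RA libraries were not alike, and the lists of the cell cycle turn on which one is used. DNA replication genes had median levels of 23 and 21.2 RPKM in TR and of 32.7, 10.3 and 18.2 RPKM in RA, and G2/M genes of 28.6 and 27.9 and of 50.5, 16.6 and 30.05. Library 1 was above TR, library 2 below it and library 3 close to it. The order was the same in nearly every gene: library 2 was below library 3 and library 3 below library 1 in 44 of 48 replication genes and in 33 of 34 G2/M genes, against 26.1% of all genes. The relative medians of these lists therefore ran from -0.62 to 1.29 and from -0.15 to 1.44 over the library pairs, and no direction was drawn for either. *MAD2L1*, a spindle checkpoint protein, had 16 and 21.5 RPKM in TR and 86, 22.4 and 48.2 RPKM in RA. *CDK1* had 21.1 and 17.5 RPKM in TR and 74.7, 21 and 46.2 RPKM in RA. *CCNB1*, its cyclin, had 39.2 and 44.6 RPKM in TR and 105, 39.5 and 59.1 RPKM in RA. *CCNE2*, a cyclin of S phase entry, had 31.7 and 33.3 RPKM in TR and 16.9, 1.12 and 3.94 RPKM in RA. The TR libraries were close for all of them.

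Calls for these lists moved with the library left out. For G2/M genes, 3 were called higher and 3 lower with all libraries, 10 and 1 without RA library 2, none and 6 without library 1, and none and 1 without library 3. For replication genes, 5 were higher and 9 lower, against 9 and 9 without library 2 and 5 and 17 without library 1. The same order of libraries held in 10 of 14 tubulins and actins, but not in the actins *ACTB* and *ACTG1*, in which library 3 was highest. Of the 14, 4 were called higher with all libraries and 7 without library 2. *TUBA1B*, which followed the order, had 105 and 107 RPKM in TR and 376, 74 and 171 RPKM in RA. Ribosomal proteins and synthetases went the other way: library 2 was above library 3 and library 3 above library 1 in 52 of 78 and in 12 of 20 genes. Over all genes 23.1% had this order. The ribosomal proteins had a median of 1.66 times more in library 2 than in library 1. Both lists stayed above all genes in each RA library, as did glycolysis and respiratory complexes III to V, and ZNF and immediate-early genes stayed below. The labels do not say how the RA libraries differed, and the part of growth state in these differences was not tested.

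**Figure D3:**
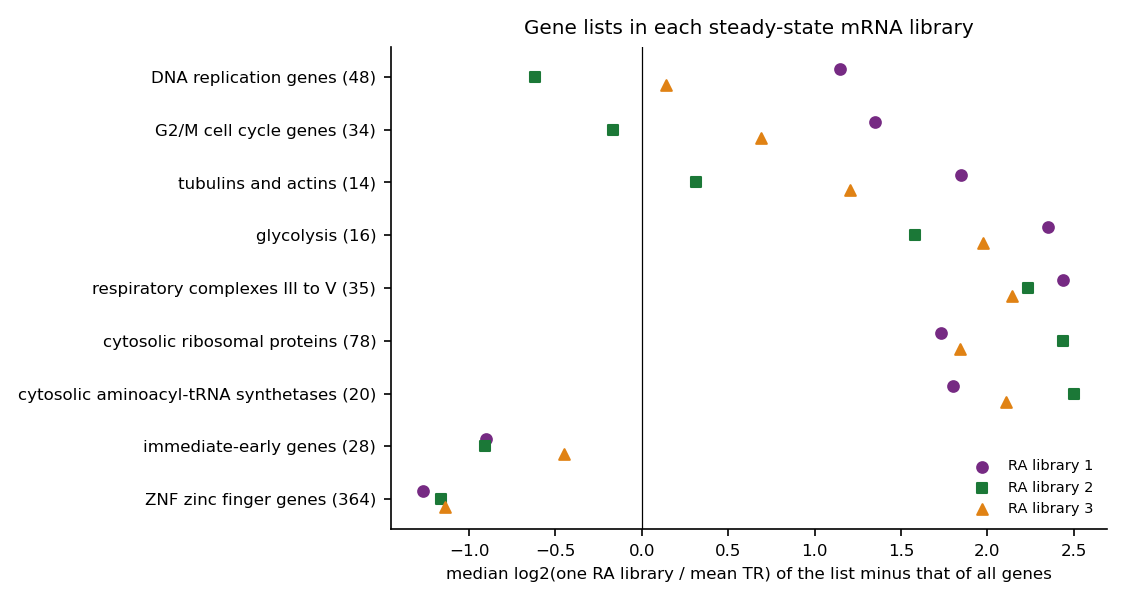
Median log2(1 RA library / mean TR) of 9 gene lists minus the median of all genes in the same library; circles, squares and triangles are RA libraries 1, 2 and 3, and the number of genes is in brackets. DNA replication and G2/M genes lie on both sides of 0 depending on the library, while the other lists keep their side.

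The genes named at the ends of the ratio were taken from 2982 protein-coding genes with at least 2 exons, no exon shared with another gene, 1 RPKM or more in both assays, at least 20 reads in the mean of TR, an adjusted p under 0.05 and one sign in all 6 library pairs, of which 1387 were higher and 1595 lower in RA. *SH3BGRL*, which encodes a small protein of the thioredoxin fold, was highest, with 4.72 and 2.93 RPKM in TR and 38.9, 37.2 and 36.3 RPKM in RA (log2 difference 3.30 ± 0.24 (SE), adjusted p = 7.6e-06). *PDIA4*, a disulfide isomerase of the endoplasmic reticulum, followed with 52.7 and 42.2 RPKM in TR and 222, 644 and 398 RPKM in RA (log2 difference 3.02 ± 0.45 (SE), adjusted p = 0.0005), then *RPS4X*. *COX7A2L*, a factor of respiratory supercomplexes, had 11.9 and 12.8 RPKM in TR and 81.4, 129 and 91.4 RPKM in RA (log2 difference 2.99 ± 0.22 (SE), adjusted p = 7.6e-06). *COX7B*, *HSPA5* and *SEP15* came next, with the values given for their lists. *SEC11C*, of the signal peptidase, had 12.9 and 10.6 RPKM in TR and 54.4, 142 and 71.2 RPKM in RA (log2 difference 2.80 ± 0.43 (SE), adjusted p = 0.00061). *RSL24D1*, which acts in assembly of the large ribosomal subunit, had 15.6 and 17.8 RPKM in TR and 72.8, 167 and 121 RPKM in RA (log2 difference 2.76 ± 0.33 (SE), adjusted p = 0.00014). *PSAP*, the precursor of the saposins of lysosomes, had 73 and 34.8 RPKM in TR and 333, 429 and 397 RPKM in RA (log2 difference 2.93 ± 0.33 (SE), adjusted p = 0.0001).

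At the low end, *LHB*, the β subunit of the pituitary hormone lutropin, had 78.4 and 105 RPKM in TR and 2.35, 1.78 and 0.651 RPKM in RA (log2 difference -5.91 ± 0.49 (SE), adjusted p = 1.7e-05). *RAB26*, a GTPase of secretory granules, had the highest transcription of these at 307 and 366 RPKM. *TMEM88*, a membrane protein, had 54 and 62.4 RPKM in TR and 0.845, 1.88 and 0.835 RPKM in RA (log2 difference -5.59 ± 0.44 (SE), adjusted p = 1.2e-05). It lies 0.27 kb downstream of *KDM6B* on the same strand, which had a mean of 35.2 RPKM in TR. Whether transcription past *KDM6B* enters its TR value was not tested. Among the other low genes the closest such neighbour was 12 kb away, upstream of *MXRA8*. *SPAG4*, a sperm-associated protein, had 108 and 113 RPKM in TR and 2.04, 4.31 and 2.58 RPKM in RA (log2 difference -5.23 ± 0.38 (SE), adjusted p = 8.4e-06). *ASIP*, the agouti signalling protein of pigment cells, had 45.9 and 67.8 RPKM in TR and 2.02, 1.22 and 1.42 RPKM in RA (log2 difference -5.11 ± 0.31 (SE), adjusted p = 2.9e-06). *ZNF594* (-5.10), *PRR15L* (-5.04), *C21orf58* (-4.90), *MXRA8* (-4.86) and *PITX3* (-4.71), a factor of dopamine neurons and the lens, completed the group, with their log2 ratios in brackets. Several are known from tissues other than the colon, and each had between 28.7 and 336 RPKM in the mean of TR. That the assays do not overlap for these genes follows from the rule that chose them. The plot of these genes by library shows a wide spread among the RA libraries of *HSPA5* and *PDIA4*.

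**Figure D4:**
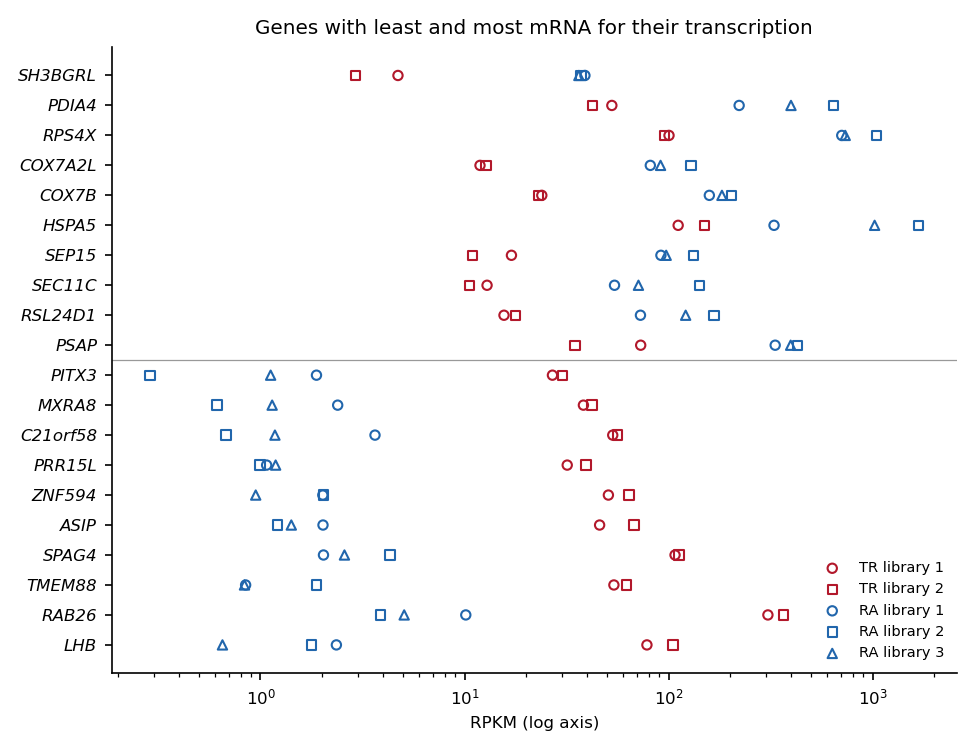
RPKM (log axis) of the 10 genes with the highest (upper group) and the 10 with the lowest ratio of RA to TR in each of 2 TR libraries (red) and 3 RA libraries (blue). The assays do not overlap by the rule that chose the genes; the lowest TR mean of the lower group is 28.7 RPKM and its highest RA mean 6.36 RPKM.

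Gene structure went with the ratio across protein-coding genes, which are not independent replicates, so the values are descriptions. The median log2 ratio was -3.06 for 365 genes with 1 exon, or -2.39 for the 320 of them that are not replication-dependent histones, -1.66 for 694 genes with 2 exons, -0.93 for 3 to 5 exons, and between -0.37 and -0.28 from 6 exons on. By GC content of the mRNA it fell from -0.07 in the lowest of 5 equal groups (30.7% to 41.1% GC) to -1.15 in the highest (59.4% to 76.0%). By the span of the gene it went from -1.48 in the shortest of 5 groups, up to 9468 bases, to -0.21 in the longest. The length of the mRNA itself had little relation, with medians between -0.61 and -0.41. Spearman's rho was -0.25 for GC content, 0.23 for span, 0.18 for exon number, 0.09 for 3′ UTR length and 0.03 for mRNA length over 13563 genes (13560 for the UTR). With 1 RPKM asked of both assays these were -0.24, 0.19, 0.13, -0.03 and -0.08 over 11293 genes (11291 for the UTR), so GC, span and exon number kept their sign, while UTR and mRNA length did not. GC content, span and exon number are related to each other, and their parts were not separated.

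**Figure D5:**
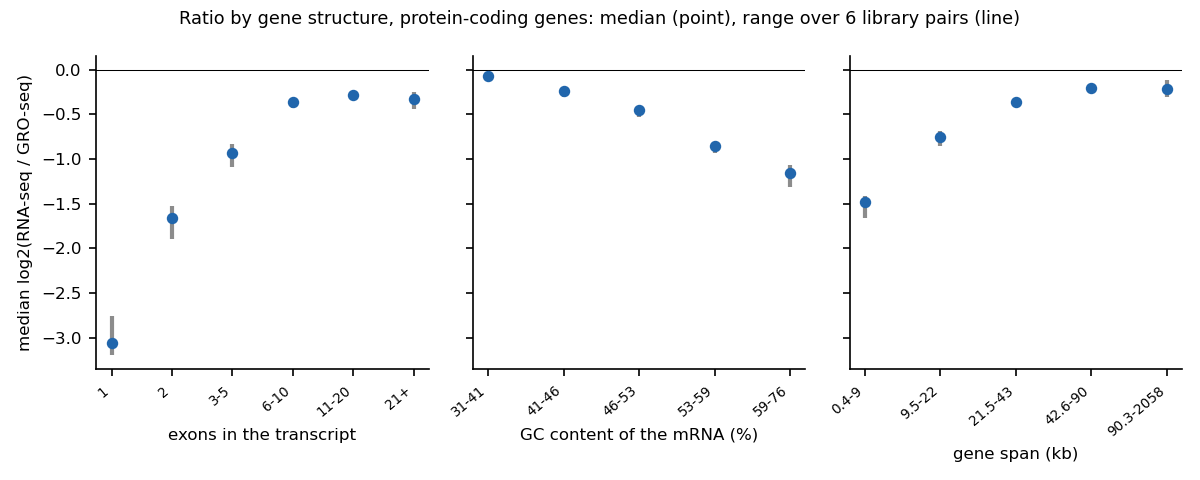
Median log2(RA/TR) of protein-coding genes grouped by exon number, by 5 equal groups of GC content and by 5 of gene span; lines are the range over the 6 library pairs. The median rises from -3.06 at 1 exon to -0.28 at 11 to 20 exons, falls with GC content and rises with span.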

How the data were processed

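Gene-level RPKM values of 7 libraries of HCT116 cells were used: GRO-seq (TR, 2), RNA-seq (RA, 3) and polysome profiling (TA, 2). Per the study's methods, the authors aligned reads with TopHat to hg19, counted those on exons with HTSeq and deposited the RPKM values in 1 table. The counting mode, strand setting and tool versions are not given in the sources used here. RNA-seq began from mRNA purified with a kit, GRO-seq from run-on RNA captured on beads. Reads per library were worked out from the RPKM steps. The exon length of each gene was then chosen so that its reads came out whole in every library. Whole reads are therefore no check of these depths. Intervals of depth cover counting error only.

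The log2 ratio of mean RA to mean TR was described for genes with at least 1 RPKM in TR or RA. Medians have their range over the 6 pairs of 1 TR and 1 RA library. Genes were tested with limma 3.58.1 in R 4.3.3 on log2(RPKM + 0.1), all 7 libraries in 1 fit, with Benjamini-Hochberg adjustment at 0.05. The fold changes of low genes are understated on that scale. An exact permutation test of 2 against 3 libraries cannot go below 0.1. On simulated data, 24.1% of 87 genes changed by 1 and 94.7% of 113 changed by 2 on the log2 scale were called, with 29 of 14081 unchanged genes. The simulation changed far fewer genes than were called in the data and gave every gene the same spread beyond counting error. Its rates therefore do not carry over to these data.

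Gene models came from GENCODE 44 on GRCh37, promoters from RefSeq GRCh38.p14. The gene lists and named genes were chosen with earlier results of these data known. Named genes were drawn from the key genes of each list, fixed by hand, from its 2 highest and 2 lowest ratios, and from the 10 highest and 10 lowest of all. Some of these were left out for brevity. *RPS10*, *RPS19*, *RPS24*, *RPS26*, *RPS27*, *ZFP36L1* and the genes with a stem-loop that are no histones were chosen after their values were seen. Alternatives changed the pseudocount, threshold, scaling, libraries, replicate block and genes.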

Additional observations from a re-analysis of the deposited data

How the results depend on the processing

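Of 943 list medians recomputed, 895 kept their side of all genes and 48, in 16 lists, changed it. The farthest of these from all genes were the DNA replication genes, at 0.40 and at -0.14 without RA library 1. Leaving out overlapping genes left no translation elongation factor, tubulin or actin to describe. With libraries centred on their medians, 5046 genes were higher in RA and the median ratio was 0.090, which this alternative shifts by construction. Without overlapping genes, 1459 were higher and 2970 lower, with a median of -0.40, among fewer genes. With 1 RPKM asked of both assays, 4262 were lower and the median was -0.23, since genes under 1 RPKM in RA or in TR were left out. The median was -0.60 at 0.5 RPKM, -0.49 at 2 RPKM, -0.75 with no threshold and -0.50 in protein-coding genes. The replicate numbers are shared, but with 2 pairs and a correlation of 0.14 in the gene-wise differences, the pairing was not established. With replicate number as a block, 2080 genes were higher, 6001 lower and the median over pairs was -0.58. Leaving out 1 library at a time gave 1840 to 2787 genes higher, 5406 to 6969 lower and medians from -0.58 to -0.52. In the centred fit 51.1% of calls were in the direction of RA, against 28.5%. The histone median relative to all genes was -9.59 from geometric means and -8.99 without RA library 1. The depth of TR limits genes under 0.295 RPKM for a 3-kb mRNA.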

Other observations

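The position of a gene, chosen for a look after its values were seen, went with the ratio in a pair of ways. Among protein-coding genes with 1 RPKM or more in both assays, 334 genes of the X chromosome stood at a median of 0.29 for log2(RA/TR), and 10959 autosomal genes at -0.23. Of the X-linked genes 38.6% were called higher in RA and 19.2% lower, against 22.9% and 37.2% of the autosomal genes. The median levels were 9.05 RPKM in TR and 10.8 RPKM in RA on the X chromosome, and 17.3 RPKM in TR and 13.7 RPKM in RA on the autosomes, so the X-linked genes were lower in TR by a wider margin than in RA. In 5 groups of autosomal GC content, from 30.7% to 76.0%, the X-linked median was higher by between 0.37 and 0.64.

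Genes that lie just downstream of another gene on the same strand had low ratios. The median log2 ratio was -1.24 for 519 protein-coding genes whose nearest upstream neighbour on the strand ends less than 1 kb away, -1.0 for 1366 genes at 1 to 5 kb, -0.63 for 2470 genes at 5 to 20 kb, -0.44 for 4010 genes at 20 to 100 kb and -0.29 for 4787 genes farther away. With 1 RPKM asked of both assays the same groups had medians of -0.80, -0.54, -0.30, -0.18 and -0.07, so the order did not depend on genes under 1 RPKM in RA. The median TR fell along the groups from 27.3 to 12.5 RPKM. With 1 RPKM asked of both assays, the nearest group had a median of -0.95 over 11 genes where the upstream gene had under 1 RPKM in TR and of -0.87 over 350 genes where it had 10 RPKM or more. At 1 to 5 kb these medians were -0.21 over 86 genes and -0.57 over 761. Whether transcription past the end of the neighbour enters the exon reads of these genes was not tested.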
